A study of Mus musculus with 38 samples.

Results

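The 10 killer cell lectin-like receptor genes Klra5, Klra7, Klrb1c, Klrb1f, Klrc1, Klrc2, Klrd1, Klre1, Klrg1 and Klrk1 were examined in 5 mouse CD8 T cell clones, each resting and activated. Their probe sets were found by gene symbol. Of the 23410 probe sets with a gene name on the array, 12 named at least 1 of these genes; 9 named 1 gene and 3 named several genes of the Klra (Ly49) family. Klra7 had no probe set of its own and was read only by one that also names Klra23, Klra16, Klra4, Klra13-ps and Klra1.

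The study compared IL-13-producing CD8 clones, raised in work on Chlamydia muridarum infection, with other CD8 clones. sAg1 and sAg3 carry the label CD8IL13+, 8uvmo-2 and 8uvmo-3 the label CD8IL13- (Tc1 clones in the series' design), and CD8bm1 is an alloreactive conventional CD8 clone. Each was profiled dormant and after 14 h on plates coated with anti-CD3 antibody (0.5 ug/ml), with 4 arrays in each of 8 groups and 3 in dormant sAg1 and dormant sAg3, 38 in all. Every group is 1 clone grown in culture, the labels give no mouse strain, and nothing states whether the arrays of a group are separate cultures, and the p-values therefore speak of array-to-array variation, possibly technical, in these 5 clones.

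Killer cell lectin-like receptors are surface proteins of NK cells that effector CD8 T cells also take up, and most are encoded in the NK gene complex. CD94, the product of Klrd1, pairs with NKG2A (Klrc1), which inhibits, or with NKG2C (Klrc2), which activates, and the pairs read the nonclassical class I molecule Qa-1. NKG2D, from Klrk1, reads stress-induced ligands and signals through the adaptor Hcst, whereas Ly49 receptors and KLRG1 read class I molecules and cadherins.

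Values are log2 expression, and a probe set whose group mean was below 7 is called near background here, a level set for this work since no background was measured. A difference was called at an adjusted p under 0.05 (limma, Benjamini-Hochberg over all 23410 probe sets) and a log2 difference of at least 1. Array medians were 6.58 to 6.70 in dormant and 7.01 to 7.09 in activated groups, and activation moved the median probe set by 0.35. The shift was 0.52 for probe sets below 7, 0.16 between 7 and 9 and -0.05 above 9. Activation differences of the members are also given relative to the array medians where the call changes. That setting takes the same amount from every probe set of an array, whatever its level. For probe sets above 9 it thus takes away more than their own median shift, and calls lost or gained there are uncertain. The 4 dormant 8uvmo-2 arrays fell into 2 sets: the correlation over all probe sets was 0.997 within replicates 1 and 3 and within 2 and 4, and 0.986 to 0.989 across them. The dormant CD8bm1 arrays were also uneven, with correlations of 0.988 to 0.996. The 7 T cell markers averaged 10.83 to 11.92 by group, although Cd2 was below 7 in sAg3 and CD8bm1 in both states (5.59 to 6.65). Of 7 NK cell markers, Ncr1, Tyrobp and Fcer1g stayed below 7 in every group, and the list averaged 6.75 to 7.79. Nkg7 (12.98 to 13.59) and Itga2 (8.56 to 10.62) were above 7 in every group, and Eomes only in sAg3 (9.24 dormant, 8.47 activated). Of 9 macrophage and dendritic cell markers, 6 stayed below 7 throughout and the list averaged 5.84 to 6.99, with Lyz2 at 9.26 in dormant sAg1. Cd68 was at 7.81 to 10.33 and Itgax at 5.35 to 11.37 by group. All 3 measured B cell markers were below 7 in every group, 3 measured innate lymphoid markers averaged 7.46 to 9.59, and 7 of stroma and epithelium 6.48 to 7.43. Their part in the results was not tested.

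In the resting clones the CD94 and NKG2 genes were high in sAg1, 8uvmo-2 and 8uvmo-3, lower in sAg3 and lowest in CD8bm1. Klrd1 (probe set 10542214) read 12.93, 12.90 and 12.91 on the dormant sAg1 arrays and 11.09, 11.14 and 11.08 on those of sAg3. It read 12.14, 12.39, 11.89 and 12.24 in 8uvmo-2, 12.40, 12.57, 12.54 and 12.58 in 8uvmo-3, and 10.25, 9.70, 10.04 and 9.52 in CD8bm1. In order of level the clones were sAg1, 8uvmo-3, 8uvmo-2, sAg3 and CD8bm1, and the arrays of neighbours did not overlap. Bulk RNA cannot tell fewer expressing cells from less RNA in each cell, here and below.

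Klrk1 (probe set 10548345) varied most of this group. Its dormant values were 9.96, 10.21 and 10.08 in sAg1 and 7.96, 8.24 and 7.81 in sAg3, against 10.93, 11.09, 10.71 and 10.73 in 8uvmo-2 and 11.08, 11.23, 11.42 and 11.14 in 8uvmo-3. CD8bm1 read 7.18, 6.78, 6.91 and 7.0, a mean just under the background level. The arrays of 8uvmo-2 and 8uvmo-3 overlapped, and the other clones were apart from them and from one another.

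Klrc1 (probe set 10548409) was far above background in every group. Dormant arrays gave 11.56 to 11.60 in sAg1, 10.53 to 10.79 in sAg3, 11.51 to 11.97 in 8uvmo-2, 12.43 to 12.58 in 8uvmo-3 and 9.78 to 10.38 in CD8bm1. Klrc2 (probe set 10548401) followed at lower readings, with dormant means of 8.39, 6.78, 7.99, 8.60 and 6.45 in sAg1, sAg3, 8uvmo-2, 8uvmo-3 and CD8bm1, near background in sAg3 and CD8bm1. Klre1 (probe set 10542205), an NK receptor chain that pairs with KLRI1 or KLRI2, had means of 9.45, 8.50, 8.87, 10.07 and 7.60 in the same clones. CD8bm1 was thus the lowest and sAg3 the next lowest clone for all 5 genes, although for Klre1 the arrays of sAg3 and 8uvmo-2 overlapped. Probes for Klrc1, Klrc2 and Klrc3 may share transcripts, since these genes are close copies of one another.

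The last 2 places were shared by 6 adjacent genes, whereas the order of the other three clones varied. Genes outside this stretch shared them too. Dormant Ptpn6 read 7.80 in sAg3 and 7.34 in CD8bm1 against 9.79 or more in the other clones. Dormant Runx1 read 7.97 and 6.94 against 9.21 or more, while dormant Plcg1 was highest in CD8bm1. The share of all probe sets with these last places was not counted, so the pattern is not shown to be particular to these genes. In the RefSeq annotation Klre1, Klrd1, Klrk1, Klrc3, Klrc2 and Klrc1 lie next to each other in this order on chromosome 6. Klrc3, a further NKG2 gene that was not among the 10, had dormant means of 6.55, 5.05, 6.37, 7.11 and 4.64 in sAg1, sAg3, 8uvmo-2, 8uvmo-3 and CD8bm1, with sAg3 and CD8bm1 last, but only 8uvmo-3 was above 7, so its order rests on readings near background. Relative to the mean of the 5 clones, dormant CD8bm1 lay between -1.19 (Klrc2) and -2.46 (Klrk1), and dormant sAg3 between -0.40 (Klre1) and -1.42 (Klrk1). After activation these ranges were -0.94 to 0.49 for CD8bm1 and -0.57 to 0.42 for sAg3, with Klrd1 above the clone mean in both.

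**Figure D1:**
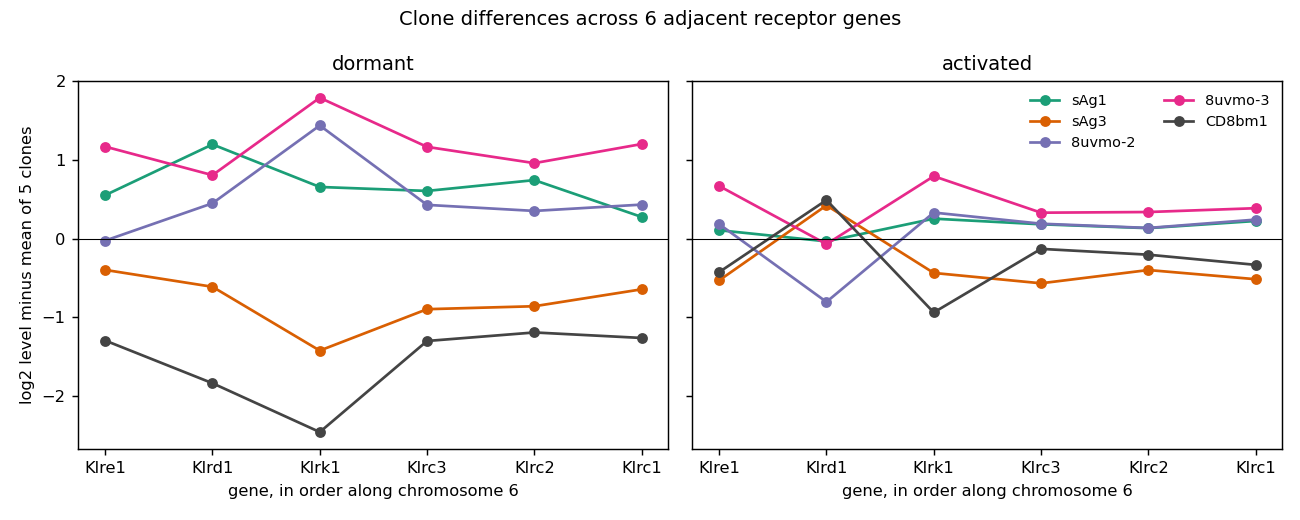
Difference of each clone's log2 level from the mean of the 5 clones (vertical axis) for 6 adjacent receptor genes in chromosomal order (horizontal axis), dormant on the left and activated on the right; points are group means of 3 or 4 arrays. Dormant CD8bm1 and sAg3 lie below 0 at all 6 genes, and after activation the lines are closer together at all 6, with CD8bm1 and sAg3 highest at Klrd1.

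The 250 bases before the transcription start are shown for the 4 of these genes with an entry, and for Klra5 as the member with the sharpest split between clones; Klrd1 and Klrg1 were without an entry. The sequences are from RefSeq on GRCm38.p6, 5′ to 3′ on the gene's own strand, from the first listed start. Capitals mark every match to the 5 motifs searched on both strands.
Klre1 (chr6:129577963-129578212, plus strand): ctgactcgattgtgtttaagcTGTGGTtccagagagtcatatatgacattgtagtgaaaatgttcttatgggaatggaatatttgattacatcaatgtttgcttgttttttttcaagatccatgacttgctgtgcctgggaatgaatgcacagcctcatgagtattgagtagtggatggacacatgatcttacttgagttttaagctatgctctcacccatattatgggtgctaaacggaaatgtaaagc
Klrk1 (chr6:129623865-129624114, minus strand): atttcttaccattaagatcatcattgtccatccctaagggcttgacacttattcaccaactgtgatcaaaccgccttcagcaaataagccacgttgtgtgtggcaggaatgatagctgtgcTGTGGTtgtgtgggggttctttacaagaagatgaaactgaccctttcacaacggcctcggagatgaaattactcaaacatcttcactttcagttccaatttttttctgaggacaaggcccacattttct
Klrc2 (chr6:129660597-129660846, minus strand): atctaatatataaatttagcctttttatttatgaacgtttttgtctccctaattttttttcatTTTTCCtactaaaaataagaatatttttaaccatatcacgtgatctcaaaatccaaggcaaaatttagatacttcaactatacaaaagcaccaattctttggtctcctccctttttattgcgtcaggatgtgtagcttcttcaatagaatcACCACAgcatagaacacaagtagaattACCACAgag
Klrc1 (chr6:129678974-129679223, minus strand): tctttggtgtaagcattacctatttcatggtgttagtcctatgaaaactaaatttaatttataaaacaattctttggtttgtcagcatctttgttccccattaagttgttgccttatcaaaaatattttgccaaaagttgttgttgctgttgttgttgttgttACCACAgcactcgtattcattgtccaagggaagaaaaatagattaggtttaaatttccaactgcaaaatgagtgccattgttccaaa
Klra5 (chr6:129913225-129913474, minus strand): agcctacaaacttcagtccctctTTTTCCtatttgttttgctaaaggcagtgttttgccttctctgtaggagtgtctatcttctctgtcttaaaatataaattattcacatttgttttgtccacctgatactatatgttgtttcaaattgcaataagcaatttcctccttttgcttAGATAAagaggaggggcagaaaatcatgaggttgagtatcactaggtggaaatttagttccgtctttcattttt
The Runx motif TGTGGT occurred in 5 of the 8 member promoters with an entry, those of Klre1, Klrk1, Klrc2, Klrc1 and Klrb1c, and in 14.0% of the 32851 promoters of the table. Its first base lay at -229 in Klre1, -129 in Klrk1, -36 and -9 in Klrc2, -87 in Klrc1 and -89 in Klrb1c, counted from the start. The NFAT motif GGAAAA was in Klrc2 and Klra5 (20.4% of all promoters) and the GATA motif AGATAA in Klrb1f, Klra5 and Klra7 (9.99%). The T-box motif GGTGTGA (3.33% of all) and the AP-1 motif TGANTCA (6.75%) were in none of the 8. Neighbouring members are related copies, and a match describes these letters only.

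Anti-CD3 changed these genes differently from clone to clone. Klrd1 fell from 12.91 to 10.55 in sAg1 (-2.36 ± 0.22 SE, adjusted p = 1.87e-11), from 12.16 to 9.79 in 8uvmo-2 (-2.38 ± 0.20) and from 12.52 to 10.52 in 8uvmo-3 (-2.0 ± 0.20), a drop of 4.01-fold or more in each. In sAg3 the difference was -0.09, and in CD8bm1 it was 1.20 ± 0.20 (adjusted p = 2.3e-06), or 0.80 relative to the array medians, which is under the minimum. The activated arrays read 10.29 to 10.76 in sAg1, 10.50 to 11.34 in sAg3, 9.23 to 10.21 in 8uvmo-2, 9.92 to 11.15 in 8uvmo-3 and 10.89 to 11.21 in CD8bm1, so each clone overlapped the next in order. The effects differed among the 5 clones (range 3.58, adjusted p = 4.94e-13 by the moderated F test), and CD8bm1 went from the lowest dormant to the highest activated mean.

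Klrk1 rose in the clones where it had been low. It went from 6.97 to 8.90 in CD8bm1 (1.94 ± 0.13, adjusted p = 1.13e-14; activated arrays 8.72 to 9.16) and from 8.00 to 9.41 in sAg3 (1.40 ± 0.14, adjusted p = 1.42e-10; activated arrays 9.30 to 9.65). Relative to the array medians the sAg3 change was 0.99, just under the minimum. The differences were 0.01 in sAg1, -0.69 in 8uvmo-2 and -0.58 in 8uvmo-3. In 8uvmo-2 the Klrk1 change was -1.09 relative to the array medians, where it was called.

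Klrc1 rose in CD8bm1 from 10.04 to 11.62 (1.58 ± 0.10, adjusted p = 1.9e-15), and in the other clones its differences were -0.17 to 0.77. Klrc2 rose in CD8bm1 from 6.45 to 7.75 (1.30 ± 0.12), or by 0.90 relative to the array medians. Klre1 passed in no clone, with differences from -0.87 in 8uvmo-3 to 0.50 in CD8bm1; relative to the array medians it was -1.22 in sAg1 and -1.26 in 8uvmo-3, past the minimum. Klrc3 rose by 1.92 in CD8bm1, from 4.64 to 6.56, and went from 5.05 to 6.12 in sAg3, all near background.

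**Figure D2:**
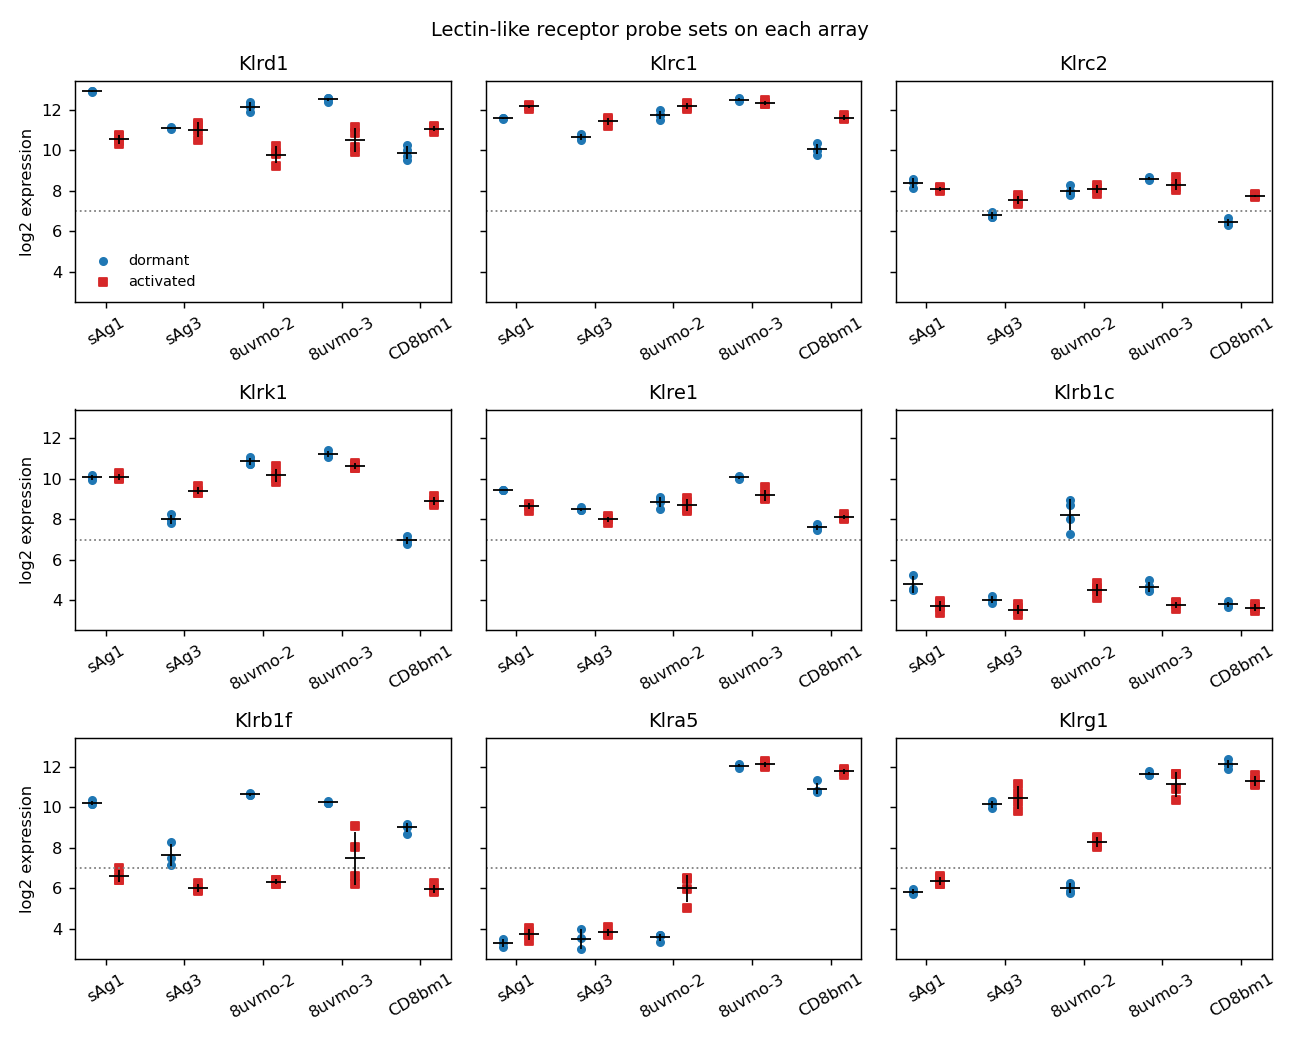
Log2 expression on every array for the 9 probe sets that name 1 gene, by clone; circles are dormant and squares activated arrays, black bars give the group mean with SD, and the dotted line marks 7. Klrb1f is lower after activation in all 5 clones, whereas Klrd1 falls in 3 clones and Klrk1 is raised in sAg3 and CD8bm1.

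Between the IL13+ and the IL13-negative clones, Klrk1 was the member with a separate level. Resting sAg1 and sAg3 averaged 9.04 and resting 8uvmo-2 and 8uvmo-3 11.04, a difference of -2.0 ± 0.10 (3.99-fold, adjusted p = 1.66e-18), and all 6 IL13+ arrays (7.81 to 10.21) were below all 8 IL13-negative arrays (10.71 to 11.42). Its activation effect was higher in the IL13+ clones by 1.34 ± 0.13 (adjusted p = 1.22e-09), with 0.01 and 1.40 against -0.69 and -0.58. After activation the clone means were 10.10 and 9.41 against 10.17 and 10.64, and the difference did not pass. CD8bm1, also no IL13+ clone, was lower than both IL13+ clones when resting. With clone means as the replicates, 2 against 2, the resting difference had an adjusted p of 0.881 and the difference in activation effect one of 0.980.

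Klrc1 sat at the minimum in the resting comparison of the phenotypes, at -1.0 ± 0.07 (adjusted p = 1.04e-13; means 11.12 and 12.12). It was -0.98 relative to the array medians and -0.94 after quantile normalization. It was also under the minimum without 1 array in 5 cases: -0.996 without dormant sAg1 replicate 3, -0.97 without dormant sAg3 replicate 3, -0.96 without dormant 8uvmo-2 replicate 2, and -0.99 without dormant 8uvmo-3 replicate 2 or 3. Klrd1, Klrc2 and Klre1 did not pass between the phenotypes in either state.

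Klrb1f, an NKR-P1 receptor of the family that binds Clec2 proteins, was the member that fell past the minimum in each of the 5 clones. Dormant arrays (probe set 10542140) read 10.15 to 10.35 in sAg1, 7.17 to 8.26 in sAg3, 10.59 to 10.73 in 8uvmo-2, 10.20 to 10.29 in 8uvmo-3 and 8.67 to 9.19 in CD8bm1. Activated arrays read 6.40 to 7.01, 5.86 to 6.28, 6.20 to 6.42, 6.20 to 9.06 and 5.80 to 6.25 in the same clones, and within each clone the states did not overlap. It fell in every clone, with differences of -3.63 for sAg1, -1.62 for sAg3, -4.33 for 8uvmo-2, -2.75 for 8uvmo-3 and -3.04 for CD8bm1 and SEs of 0.32 to 0.34. Over the 5 clones the mean went from 9.55 to 6.47 (-3.08 ± 0.15, adjusted p = 7.29e-20), and the differences were unequal among clones (range 2.71, adjusted p = 0.000154). Activated means were near background in sAg1 (6.60), sAg3 (6.02), 8uvmo-2 (6.31) and CD8bm1 (5.96), so the sizes of the falls, and their range, depend on the dormant level and on readings near background.

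Activated 8uvmo-3 was the one group whose arrays spread widely for Klrb1f, at 9.06, 6.62, 8.06 and 6.20. The same replicates 1 and 3 were also the higher ones for Klrd1 (11.15 and 10.86 against 10.15 and 9.92) and Klrg1 (11.65 and 11.63 against 10.90 and 10.34). Activated 8uvmo-2 lay below activated 8uvmo-3 for Klrb1f (-1.17 ± 0.32, adjusted p = 0.00422), but the difference was -0.65 without activated 8uvmo-3 replicate 1 and -0.98 without replicate 3, neither past the minimum, and the adjusted p was 0.119 with only those 2 groups in the fit. Resting IL13+ clones were lower than IL13-negative clones (-1.51 ± 0.24), a call that rests on sAg3: sAg1 (10.22) and 8uvmo-3 (10.24) were 0.01 apart. It was lost relative to the array medians and without dormant sAg1 replicate 1 (-1.49), dormant sAg1 replicate 3 (-1.49) or dormant 8uvmo-3 replicate 3 (-1.50), where those clone means changed places.

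Klrb1c, which encodes the NK1.1 antigen, was above background in 1 group of 10. The dormant 8uvmo-2 arrays (probe set 10548307) read 7.26, 8.69, 8.03 and 8.96, the lower values being those of replicates 1 and 3, which formed a set of their own over the whole array. All other groups averaged 3.54 to 4.78. It fell by 3.73 ± 0.22 in 8uvmo-2 on activation, to 4.50 (adjusted p = 3.45e-16). In sAg1 it went from 4.78 to 3.71, both near background, a called difference of -1.07 that became -0.83 without dormant sAg1 replicate 2 and -0.96 without activated sAg1 replicate 3. The differences in sAg3, 8uvmo-3 and CD8bm1 were -0.48, -0.89 and -0.15, all between means near background. Relative to the array medians the 8uvmo-3 difference was -1.27 and was called. The mean over the 5 clones, -1.26 ± 0.10, was therefore carried mainly by 8uvmo-2.

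Klra5, which encodes Ly49E, was high in 8uvmo-3 and CD8bm1 and near background elsewhere, a split that crossed the phenotypes. Dormant 8uvmo-3 arrays (probe set 10548450) read 11.94, 12.09, 12.16 and 12.05 and dormant CD8bm1 arrays 11.34, 10.81, 10.75 and 10.80. The values were 3.47, 3.28 and 3.07 in dormant sAg1, 3.00, 3.99 and 3.54 in dormant sAg3, and 3.62, 3.70, 3.68 and 3.32 in dormant 8uvmo-2, and these 3 groups overlapped. Resting 8uvmo-2 minus resting 8uvmo-3 was -8.48 ± 0.21 (adjusted p = 9.17e-27), although both have the label CD8IL13-. Since 3.58 is near background, the size of this difference is uncertain.

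Activation kept this order. Activated 8uvmo-3 read 11.99 to 12.27 and CD8bm1 11.62 to 11.89, against 3.38 to 4.01 in sAg1 and 3.71 to 4.10 in sAg3. In 8uvmo-2 Klra5 rose from 3.58 to 5.99 (2.41 ± 0.21, adjusted p = 3.03e-12), with arrays at 5.03, 6.45, 6.52 and 5.95, still below 7, and the probe set naming Klra9, Klra5 and Klra3 did not pass there (0.13 ± 0.11, adjusted p = 0.303). The mean of the IL13+ clones minus that of the IL13-negative clones was -4.43 resting and -5.29 activated. The size of the activated difference comes mainly from 8uvmo-3, since 8uvmo-2 (5.99) was near background, as were the IL13+ clones. The resting call rests on 8uvmo-3, since 8uvmo-2 (3.58) and sAg3 (3.51) were nearly level. It was lost without dormant sAg3 replicate 1, without dormant 8uvmo-2 replicates 1 and 3, and with array weights, though the mean difference stayed between -4.39 and -4.30.

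The probe set naming Klra9, Klra5 and Klra3 gave the same split, at 10.69 to 10.79 in dormant 8uvmo-3, 9.54 to 10.06 in dormant CD8bm1 and 4.57 to 5.28 in the other dormant groups. Its correlation with Klra5 was 0.98 over the 10 group means, which share arrays; its signal cannot be assigned to 1 of the 3 genes. Activated 8uvmo-3 and CD8bm1 read 9.63 to 10.17 and 9.69 to 9.99. In 8uvmo-3 it differed by -0.86 ± 0.11 on activation (-1.24 relative to the array medians, where it was called), against 0.07 for Klra5 alone. In the activated comparison of the phenotypes it was lower in the IL13+ clones (-2.56 ± 0.08), with sAg1 (4.94) and 8uvmo-2 (4.97) nearly level, and without activated sAg1 replicate 2 the clones were no longer apart. The probe set of 7 symbols (Klra14-ps, Klra9, Klra8, Klra6, Klra5, Klra3 and Klra10) had group means of 3.67 to 4.68, and the only probe set for Klra7, the gene of the inhibitory receptor Ly49G, had 3.71 to 4.24, so neither rose above background in any group.

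**Figure D3:**
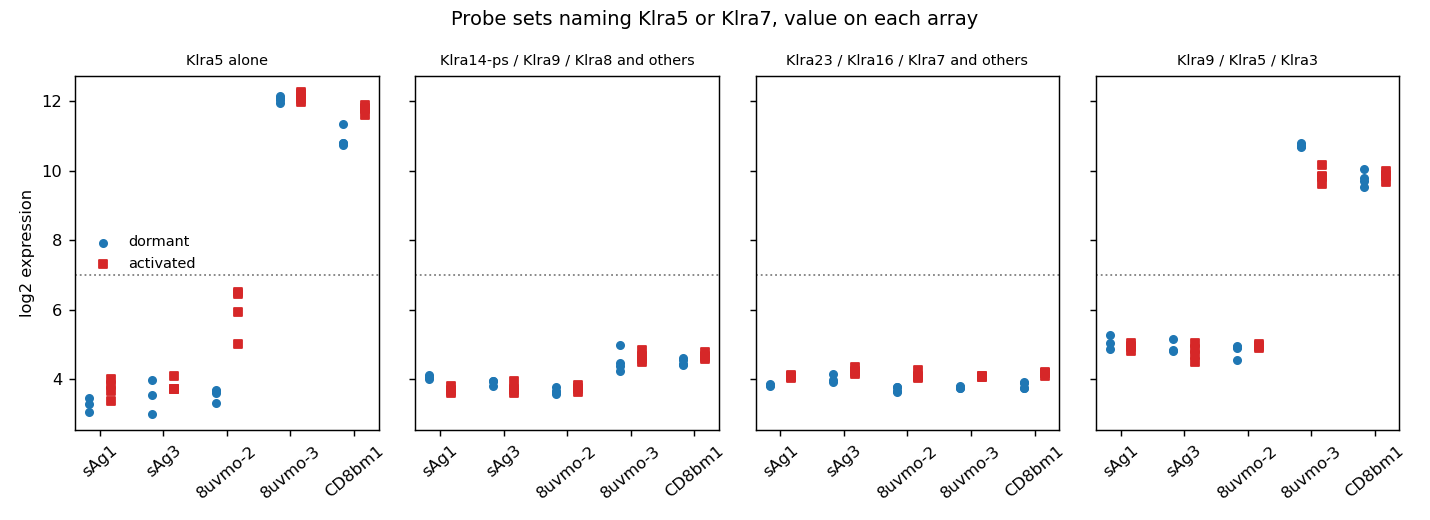
Log2 expression on every array for the 4 probe sets that name Klra5 or Klra7, by clone; circles are dormant and squares activated arrays, and the dotted line marks 7. Klra5 alone and the Klra9, Klra5 and Klra3 probe set are high only in 8uvmo-3 and CD8bm1 among these 5 clones, and the other 2 probe sets lie below 5.

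Klrg1, an inhibitory receptor that marks late effector CD8 cells, split the clones differently again. Dormant arrays (probe set 10547590) read 11.90 to 12.39 in CD8bm1, 11.60 to 11.78 in 8uvmo-3 and 9.95 to 10.30 in sAg3, against 5.76 to 6.27 in 8uvmo-2 and 5.71 to 5.94 in sAg1, which overlapped. The 2 IL13+ clones therefore differed by -4.32 ± 0.25 (sAg1 minus sAg3, adjusted p = 3.11e-16) and the 2 IL13-negative clones by -5.67 ± 0.22 (8uvmo-2 minus 8uvmo-3, adjusted p = 3.28e-21), and neither state gave a call between the phenotypes. The means of sAg1 (5.82) and 8uvmo-2 (6.0) were near background, so the sizes of these differences are uncertain. On activation it rose in 8uvmo-2 from 6.0 to 8.30 (2.30 ± 0.22, adjusted p = 2.87e-11; arrays 8.05 to 8.53). Activated sAg1 stayed at 6.20 to 6.58. In CD8bm1 the difference was -0.85 ± 0.22, or -1.26 relative to the array medians, where it was called.

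Counted over the 12 probe sets, activation changed 3 in sAg1, all lower (10.8% of all probe sets were called in that comparison). It changed 2 in sAg3, 1 higher and 1 lower (background 5.04%), 5 in 8uvmo-2, 2 higher and 3 lower (11.9%), and 2 in 8uvmo-3, both lower (10.1%). In CD8bm1 it changed 5, 4 higher and 1 lower (7.27%). Over the 5 clones, with the same direction required in each, 2 were lower, Klrb1f and Klrb1c (6.2%), the latter above background only in dormant 8uvmo-2. The member median was 0.14 over the 5 clones against 0.35 for all probe sets. Relative to the array medians the calls were 4, 1, 6, 5 and 4 in sAg1, sAg3, 8uvmo-2, 8uvmo-3 and CD8bm1, beside 10.3%, 4.4%, 11.7%, 10.1% and 7.9% of all probe sets. In CD8bm1 2 of these were higher and 2 lower. Over the 5 clones, the calls among all probe sets then went from 1069 higher and 383 lower to 248 higher and 1301 lower.

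The activation effects themselves differed among the 5 clones for 9 of the 12 probe sets, against 14.4% of all probe sets; the 9 are those that name 1 gene. The median range of effects was 2.04 for the members and 0.36 for all. Their difference between the phenotypes was called for 1, Klrk1 (1.95% of all). Klrd1 reached 0.97 ± 0.21 there, under the minimum, and Klrb1c 1.53 with the clones of the 2 sides not apart.

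**Figure D4:**
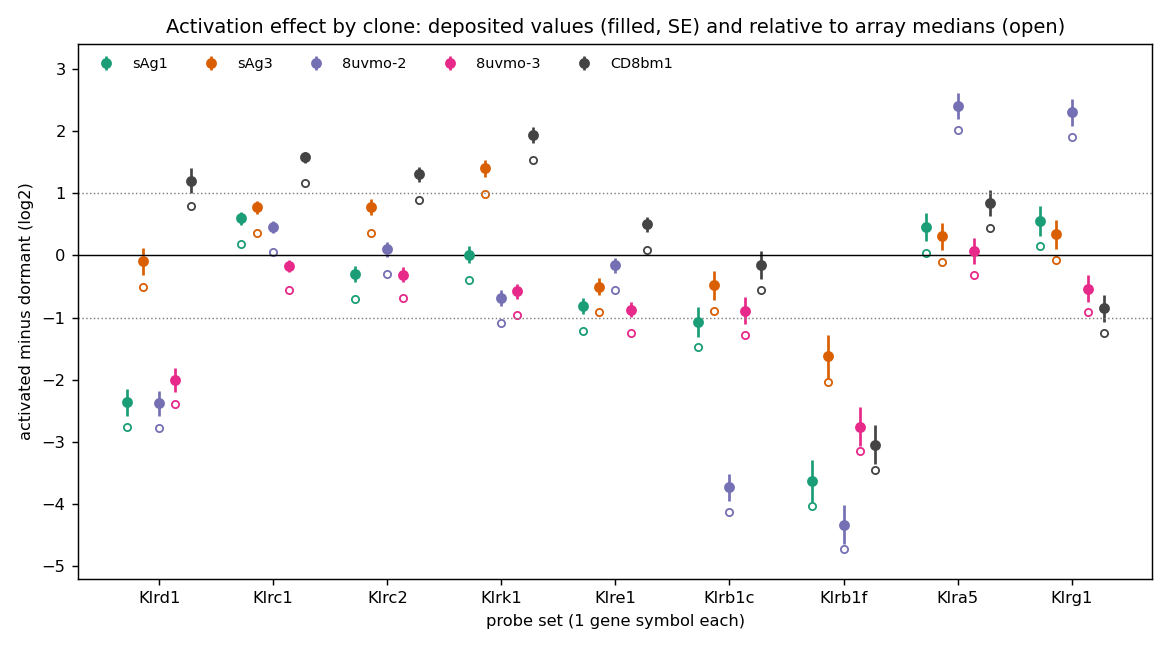
Activated minus dormant log2 difference (vertical axis) in each clone for the 9 probe sets that name 1 gene; filled points are deposited values with SE, open points the same relative to the array medians, and dotted lines mark 1 and -1. Klrb1f lies below -1 in all 5 clones, whereas Klrd1 lies near -2 in 3 clones and at 1.20 in CD8bm1.

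Between resting clones the members were called at higher shares than all probe sets. They were chosen with earlier results of these data known, and some of their probe sets name the same gene, so the counts are descriptive only. IL13+ clones were lower than IL13-negative clones for 4 of 12, Klra5, Klrb1f, Klrc1 and Klrk1 (3.35% of all probe sets), and differed from CD8bm1 for 8, 5 higher and 3 lower (7.26%). These comparisons share the IL13+ arrays. Klrd1, Klrk1, Klre1, Klrc2 and Klrc1 were higher than in CD8bm1, by 2.13, 2.08, 1.37, 1.14 and 1.08, while Klra5, Klrg1 and the Klra9, Klra5 and Klra3 probe set were lower. Klrc1 was under the minimum there without dormant CD8bm1 replicate 4 (0.99), and Klrc2 after quantile normalization (0.997). Within a phenotype, sAg1 and sAg3 differed for 5 (7.55%), with Klrb1f, Klrk1, Klrd1 and Klrc2 higher in sAg1 by 2.58, 2.08, 1.81 and 1.60. 8uvmo-2 and 8uvmo-3 also differed for 5 (4.6%), 1 higher and 4 lower in 8uvmo-2. The member medians of these 4 comparisons were -0.92, 0.36, 0.84 and -0.69 against 0.03, 0.01, -0.03 and -0.01 for all.

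After activation fewer members were called. IL13+ clones were lower than IL13-negative clones for 2, Klra5 and the Klra9, Klra5 and Klra3 probe set (1.75%), and lower than CD8bm1 for 3, those and Klrg1 (3.67%). Of the IL13-negative clones, only 8uvmo-3 was above background for Klra5 and for the Klra9, Klra5 and Klra3 probe set. sAg1 and sAg3 differed only in Klrg1 among the 12 (-4.10 ± 0.22, 5.04%), and 8uvmo-2 was lower than 8uvmo-3 for 4 (3.11%). The range over the 5 clone means was smaller after activation in all 10 member probe sets whose dormant range was at least 1, for instance from 4.25 to 1.73 in Klrk1, 3.04 to 1.30 in Klrd1 and 2.47 to 0.90 in Klrc1. The same held for 85.0% of the 4861 such probe sets on the array. These were chosen by their dormant range, which favours a smaller range after activation. The median shift on activation was also 0.52 for probe sets below 7 and -0.05 above 9. The part of either in the smaller ranges was not tested. Klra5 kept a range of 8.41 of 8.79 and Klrg1 4.91 of 6.31.

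The partners of these receptors were measured from lists of related genes. Beside the list counts below, 6.2% of all probe sets were called over the 5 clones (6.62% relative to the array medians). In the resting phenotype comparison 3.35% of all were called. Hcst, the adaptor of NKG2D, had dormant means of 10.73 in sAg1, 9.42 in sAg3, 10.44 and 10.24 in 8uvmo-2 and 8uvmo-3, and 8.37 in CD8bm1, and it was also lowest in CD8bm1 and next lowest in sAg3. Unlike Klrk1 it fell over the 5 clones on activation (-1.15 ± 0.05, adjusted p = 2.86e-20), to 7.51 in CD8bm1. Tyrobp, the adaptor of activating NKG2C and Ly49 receptors, was at 5.91 to 6.73. H2-T23, which encodes Qa-1, was at 10.88 to 11.76 through a probe set that also names other genes. Of 22 measured adaptors and signalling genes, 2 were higher (Sh2d1b1 by 1.75, Sh2d1b2 by 1.31) and 1 lower (Hcst) over the 5 clones, against 1 higher and 4 lower relative to the array medians. Sh2d1b2 was near background in every group, and Sh2d1b1 was above 7 only in activated 8uvmo-2 (8.615) and activated CD8bm1 (7.015). In the resting phenotype comparison 2 of the 22 were called, Inpp5d (-2.58 ± 0.06) and Sh2d1a (-2.52), both lower in IL13+ clones. Dormant Sh2d1a read 9.29 and 6.53 in sAg1 and sAg3, 10.20 in 8uvmo-2, and was lowest in CD8bm1 (4.95), which is no IL13+ clone. Inpp5d encodes the phosphatase SHIP1 and Sh2d1a the adaptor SAP.

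Of 15 measured ligand genes, Clec2e rose by 1.03 over the 5 clones (0.62 relative to the array medians, not called) but stayed near background in every group. Clec2i was lower in resting IL13+ clones (-3.91). Clec2i, a Clec2 protein gene, read 5.94 and 5.43 in dormant sAg1 and sAg3, 9.19 and 10.01 in 8uvmo-2 and 8uvmo-3 and 7.0 in CD8bm1. Of 21 other lectin-like receptors, 3 rose over the 5 clones and none fell, or 2 rose and 2 fell relative to the array medians. Olr1 rose by 4.38 and was above 7 only in activated sAg1 (11.97), 8uvmo-2 (10.83) and 8uvmo-3 (10.21). Klrb1a rose by 1.41 and Clec7a by 1.05, both near background in every group. Between the resting phenotypes 0 of the 21 were called by limma, where 10 had an unadjusted p under 0.05. Klri2, a partner of Klre1, had dormant means of 11.86, 8.27, 10.60, 12.14 and 10.28 in sAg1, sAg3, 8uvmo-2, 8uvmo-3 and CD8bm1, lowest in sAg3. On activation Klri2 rose by 1.46 in CD8bm1 and went from 8.27 to 9.78 in sAg3. It was named after its values were seen.

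Of 16 NK receptors of other families, Cd160 rose by 1.65 (above 7 only in activated sAg1, at 7.60) and the costimulatory receptor gene Cd226 fell (-2.41) over the 5 clones. In the resting phenotype comparison Lair1 was higher by 1.48 (above background only in sAg3, at 7.65) and Cd7 and Itga2 lower (-3.69 and -1.22) in IL13+ clones. Dormant CD8bm1, no IL13+ clone, read 6.06 for Cd7, below sAg1 (6.32) and sAg3 (6.23). Of 22 transcription factors of NK and effector CD8 cells, Irf8 rose by 3.02 and Bcl11b and Stat4 fell (-1.34 and -1.11). Resting IL13+ clones were higher in Nfil3 (1.38) and in Id3 (1.71), the latter through sAg1 (9.04), since sAg3 (5.70) was level with 8uvmo-2 (5.68) and 8uvmo-3 (5.65). They were lower in Ikzf2 (-1.93), Ikzf3 (-1.67) and Ets1 (-1.27). Dormant Ikzf3 read 10.07 and 7.98 in sAg1 and sAg3, 10.31 and 11.09 in 8uvmo-2 and 8uvmo-3, and 10.73 in CD8bm1. Dormant Nfil3 was higher in CD8bm1 (9.40) than in sAg1 (9.09). With clone means as the replicates, 3 of all probe sets were called in the resting phenotype comparison. Ets1 read 9.95, 8.33, 10.40, 10.43 and 6.22 in dormant sAg1, sAg3, 8uvmo-2, 8uvmo-3 and CD8bm1, the same order of clones as Klrk1. Eomes was above background only in sAg3 among these clones (9.24 dormant, 8.47 activated) and Tbx21 at 10.01 to 11.34 in every group. The median difference over the 5 clones was 0.56 for the other lectin-like receptors, 0.08 for adaptors, 0.02 for ligands, 0.31 for NK receptors of other families and 0.07 for the factors, against 0.35 for all probe sets. In the resting phenotype comparison these medians were 0.01, 0.07, 0.02, -0.04 and -0.08, against 0.03.

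The genes most like each member were those with the highest Pearson correlation of the 10 group means, which share arrays and clones, among 2310 probe sets that spanned at least 2. Klrc3 was most like Klrc1 (0.98) and Klrc2 (0.96), and Cerk most like Klrk1 (0.95). Sema3d (0.98) and Celsr1 (0.97) came first for Klra5, Prxl2c (0.97) for Klrb1f, Cubn (0.97) for Klrb1c, Slc37a3 (0.94) for Klrd1, Zc3h12d (0.95) for Klre1 and Lztfl1 (0.96) for Klrg1. Among the members themselves, Klrc1 and Klrk1 correlated at 0.93, Klrc2 and Klrk1 at 0.94, and Klrd1 and Klrk1 at 0.48.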

How the data were processed

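Affymetrix arrays (WT Plus labelling of 100 ng total RNA, QIAGEN RNeasy) had been processed by the authors to log2 values in the deposited table; per the submitters' processing notes Partek and RMA were used, with no version stated, and the array build is not given in the sources used here. Probe sets were named from GEO's platform annotation, which is old, with symbols updated through RefSeq where an identifier matched. The 35556 rows held 23410 with a gene name, 1621 of them with several.

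All 38 arrays entered 1 limma 3.58.1 fit (R 4.3.3) with a mean for each clone and state, a variance trend and Benjamini-Hochberg adjustment over the 23410 probe sets, two-sided. Clones weighed equally in contrasts. Comparisons between phenotypes also required the clone means (or effects) of both sides to be apart, and activation over 5 clones the same direction in each. The difference among clones used a moderated F test with a range of at least 1. In all, 16 comparisons were made. Scripts were tested on simulated data.

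Members, lists and comparisons were chosen with earlier results of these data known. Named from a list were up to 3 called genes a direction with the largest difference, plus Tyrobp, Hcst, H2-T23, Eomes and Tbx21; a gene's brightest probe set stood for it. Member probe sets were dropped from the list of other lectin-like receptors after values were seen. The number of arrays limits the precision. The labels state no pairing, and replicate numbers did not enter the main fit. The replicate block was an alternative run, shared by all clones.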

Additional observations from a re-analysis of the deposited data

Results flagged for a closer look

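In 3 of 96 groups of 4 arrays tested, 1 array stood apart from the other three of its group; chance gives about 1 group in 20. These were Klra5 at 11.34 in dormant CD8bm1 (others 10.75 to 10.81), Klra5 at 4.10 in activated sAg3 (others 3.71 to 3.73, near background) and the probe set naming Klra23, Klra16, Klra7, Klra4, Klra13-ps and Klra1 at 4.09 in activated CD8bm1 (others 4.19 to 4.20, near background).

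The activation effect differed among the 5 clones by the moderated F test in limma for 9 probe sets. The range between the highest and lowest clone effect was 3.58 for both Klrd1 (3.5825) and Klrb1c (3.5775), 3.15 for Klrg1, 2.71 for Klrb1f, 2.63 for Klrk1 and 2.34 for Klra5 (2.335). It was 1.75 for Klrc1 (1.745), 1.61 for Klrc2 and 1.37 for Klre1. For Klrb1f all 5 clones fell past the minimum. For Klrd1 3 clones fell and CD8bm1 rose (1.20, or 0.80 relative to the array medians, under the minimum there). Between the phenotypes, the activation effect of Klrk1 was 1.34 higher in the IL13+ clones.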

How the results depend on the processing

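No difference called among the 12 probe sets changed direction under any alternative run. Without the minimum difference the calls rose to 9 in sAg1, 6 in sAg3, 8 in 8uvmo-2, 9 in 8uvmo-3, 9 in CD8bm1 and 4 over 5 clones for activation; to 9 for each resting pair of 1 phenotype; to 8 for activated IL13+ against IL13-negative clones, 5 against CD8bm1, 6 for activated sAg1 against sAg3 and 9 for activated 8uvmo-2 against 8uvmo-3; and to 3 for the difference in activation effect between phenotypes. All probe sets were then called at 73.0% to 82.5% for activation in a clone and 70.7% over 5 clones, so the member counts there are below the background. The share was 13.1% to 35.4% in the comparisons between clones or phenotypes just named. Relative to the array medians the count was 1 for activation in sAg3 (4.4% of all probe sets), 5 in 8uvmo-3 (10.1%) and 2 for resting IL13+ against IL13-negative clones (3.29%). With clone means as replicates, 0 members were called in all 5 comparisons that set the IL13+ clones against others, where limma called 3, 56, 2, 23 and 0 of all probe sets and 0, 0, 0, 1 and 2 members had an unadjusted p under 0.05 (in the order resting against IL13-negative and CD8bm1, activated against the same, difference in activation effect). With 1-gene probe sets alone, activated IL13+ against IL13-negative clones gave 1, and without the condition on clones the difference in activation effect gave 2. Leaving out each array in turn gave 2 to 5 calls for resting IL13+ against IL13-negative clones, beside 744 to 831 of all 23410 probe sets. It gave 1 to 2 for the activated ones (403 to 419 of all) and 1 to 2 for the difference in activation effect (417 to 497 of all). A fit with the replicate block changed none of the 16 counts by over 1.5 times (4 for resting IL13+ against IL13-negative clones, 9 for the difference among clones). The filter on dim probe sets kept 10 of the 12 member probe sets. Of 18 correlations between same-numbered arrays' deviations 7 were over 0.1 (-0.24 to 0.27). In 8uvmo-2 all 4 were (0.11 to 0.24), and in no other clone were all of them. No pairing within 8uvmo-2 alone was fitted. The replicate block shared by all clones gave the same number of member calls for activation in 8uvmo-2, 5.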
